A study of Sus scrofa with 12 samples.

Results

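ANKRD22, P2RY14, VAMP5, SLAMF8, GBP6, SLC6A12 and TCN2 are 7 of the 7480 genes measured in pig blood cells, and they are described here in all 12 libraries. They were picked from the measured values, because they were much higher after Salmonella than in controls and lost part of that increase in the libraries labelled with a miR-124 sponge. All 3 comparisons between the groups thus entered the choice, and the differences of these 7 genes are given as descriptions, with no test. No fixed threshold was part of the choice, and 26 other genes had a larger Salmonella minus control difference than TCN2, the smallest of the 7.

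The labels name the cells as peripheral blood mononuclear cells (PBMC) of 4-week-old crossbred piglets (Duroc x Landrace x Yorkshire). A first group of 4 libraries was treated with a miR-124 sponge and Salmonella, a second group of 4 with Salmonella (Salmonella Typhi in the series description), and the last group of 4 was left untreated as control. A sponge is meant to bind a microRNA, and the titles of the first group name miR-124 and Salmonella without the word sponge. No library was treated with the sponge alone. RNA was collected 12 h after treatment, and the design held 20 piglets, but the animal behind each library is not given, so the spread between libraries may be technical.

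Several of these genes are known in humans and mice as genes that interferons switch on. Interferon gamma from lymphocytes and type I interferon from infected cells act through JAK kinases, which raise transcription factors such as IRF1 and BATF2, and these in turn drive target genes in monocytes and macrophages. ANKRD22, an ankyrin repeat protein, and BATF2, a transcription factor, belong to human blood signatures of tuberculosis. P2RY14 is a receptor for UDP-glucose, SLAMF8 a receptor of the SLAM family found on myeloid cells, VAMP5 a vesicle protein of the SNARE family, and GBP6 a guanylate-binding protein. SLC6A12 carries betaine and GABA into cells, and TCN2 (transcobalamin) carries vitamin B12 in blood.

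The values are the deposited log2 values, 1 for each gene and library, and the base of the logarithm is taken as 2. Library medians lay between 5.11 and 5.31, and the reads behind each value are unknown. A level of 4.62 was read as background. It is the mean of 186 genes taken to be silent in blood, such as olfactory, taste and keratin-associated families, of which 55 are in the pig gene tables used here, and their 95th percentile was 5.24. Exact ties between genes made up 65.1% to 71.4% of each sponge plus Salmonella column and at most 0.0802% of any other, so the treatment and the type of column cannot be told apart. The monocyte markers had a mean of 9.17 to 9.72 in sponge plus Salmonella, 9.99 to 10.25 in Salmonella and 8.45 to 8.93 in control libraries (7 of 10 markers measured). The T cell markers had a mean of 8.47 to 9.07 in sponge plus Salmonella, 7.40 to 8.00 in Salmonella and 8.83 to 9.18 in control libraries (7 of 10 measured). In such bulk samples fewer cells of a type and less RNA per cell cannot be told apart.

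ANKRD22 (chromosome 14, 100747955 to 100772412 in Sscrofa11.1) had the largest Salmonella minus control difference of the table. It stood at 10.17, 10.23, 5.07 and 5.38 in sponge plus Salmonella replicates 1 to 4, at 12.11, 13.61, 13.35 and 13.92 in Salmonella replicates 1 to 4, and at 2.98, 3.08, 2.98 and 3.55 in control replicates 1 to 4. The 3 groups did not overlap, and sponge plus Salmonella replicates 1 and 2 lay far above replicates 3 and 4. Within each column, its control value was the lowest of all 7480 genes in replicates 1, 2 and 3, while in Salmonella replicate 4 only 2 genes had a higher value. Such places describe the table and not RNA per gene length, since gene length was not corrected for here. The Salmonella minus control difference was 10.10 ± 0.96 log2 units. Each SE given with a difference comes from the fit of all 3 groups with 4 libraries each, so that for ANKRD22 it includes the wide spread of the sponge plus Salmonella libraries (SD 2.88, against 0.79 in Salmonella and 0.27 in control libraries). The sponge plus Salmonella minus Salmonella difference was -5.53 ± 0.96, the largest fall. Because the control values lie below the background, the size of the first difference is uncertain. With every value below 4.62 raised to 4.62, it was 8.63.

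**Figure D1:**
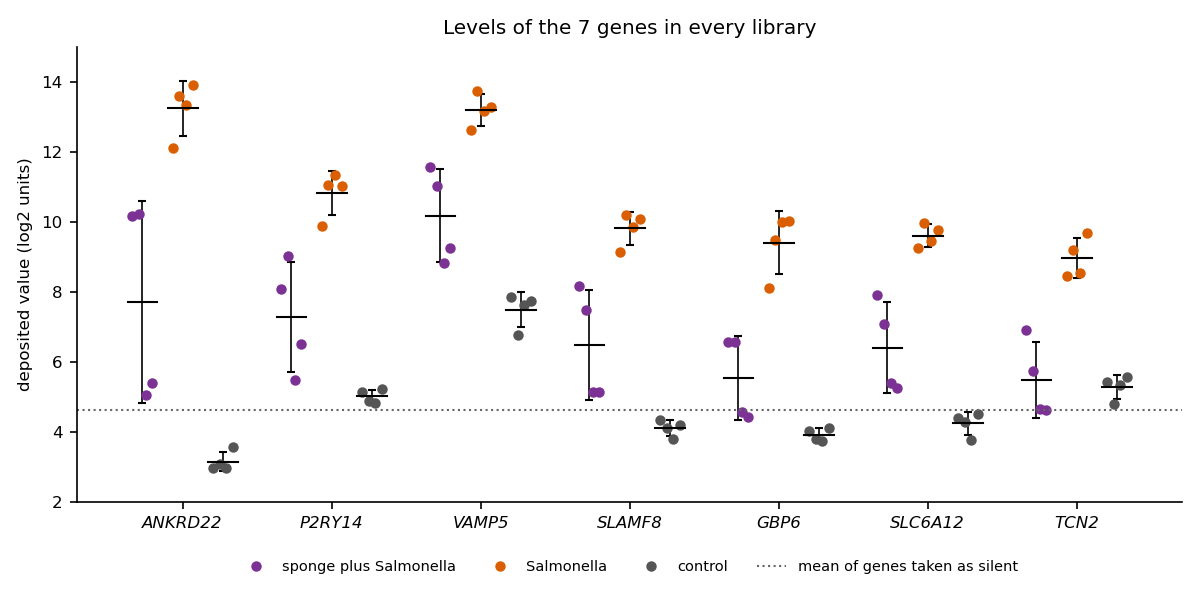
Deposited log2 value (vertical axis) of each of the 7 genes in each library, with sponge plus Salmonella, Salmonella and control side by side, replicates 1 to 4 from left to right, bars for the mean ± SD of 4 libraries, and a dotted line at the background of 4.62. In every gene the 4 Salmonella values lie above the 8 others, and the sponge plus Salmonella values fall into an upper pair, replicates 1 and 2, and a lower pair.

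P2RY14 and SLAMF8 encode the receptors among the 7 genes. P2RY14 (chromosome 13, 91396006 to 91453761) stood at 8.09, 9.02, 5.49 and 6.51 in sponge plus Salmonella replicates 1 to 4, at 9.89, 11.07, 11.33 and 11.02 in Salmonella replicates 1 to 4, and at 5.15, 4.87, 4.82 and 5.22 in control replicates 1 to 4. The groups did not overlap, but sponge plus Salmonella replicate 3 came close to the highest control value. The differences were -3.55 ± 0.56 for sponge plus Salmonella minus Salmonella and 5.81 ± 0.56 for Salmonella minus control. SLAMF8 (chromosome 4, 90661984 to 90673044) stood at 8.17, 7.48, 5.13 and 5.13 in sponge plus Salmonella replicates 1 to 4, at 9.15, 10.20, 9.87 and 10.07 in Salmonella replicates 1 to 4, and at 4.35, 4.12, 3.80 and 4.19 in control replicates 1 to 4. Again the groups did not overlap, and the control values lay below the background. The differences were -3.34 ± 0.55 for sponge plus Salmonella minus Salmonella and 5.71 ± 0.55 for Salmonella minus control.

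VAMP5, whose protein sits on vesicles and the plasma membrane, and GBP6, of a family of GTPases that coat vacuoles with bacteria in mice and humans, act inside the cell. VAMP5 (chromosome 3, 59177460 to 59185703) stood at 11.57, 11.03, 8.83 and 9.27 in sponge plus Salmonella replicates 1 to 4, at 12.64, 13.75, 13.18 and 13.28 in Salmonella replicates 1 to 4, and at 7.85, 6.77, 7.62 and 7.75 in control replicates 1 to 4. It was the only one of the 7 genes whose control values all lay above 5.24. The differences were -3.04 ± 0.49 for sponge plus Salmonella minus Salmonella and 5.72 ± 0.49 for Salmonella minus control. GBP6 stood at 6.58, 6.58, 4.57 and 4.43 in sponge plus Salmonella replicates 1 to 4, at 8.11, 9.49, 9.997 and 10.04 in Salmonella replicates 1 to 4, and at 4.03, 3.80, 3.73 and 4.11 in control replicates 1 to 4. Sponge plus Salmonella replicates 3 and 4 lay below the background, and replicates 1 and 2 held the same value. The differences were -3.87 ± 0.51 for sponge plus Salmonella minus Salmonella and 5.49 ± 0.51 for Salmonella minus control. The symbol GBP6 was not in the pig gene tables, so it has no position here, and how reads of near-identical family members were shared out is not given. Its value is therefore uncertain.

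The carriers were SLC6A12 and TCN2. SLC6A12 (chromosome 5, 67550285 to 67573858) stood at 7.92, 7.09, 5.39 and 5.24 in sponge plus Salmonella replicates 1 to 4, at 9.25, 9.96, 9.46 and 9.78 in Salmonella replicates 1 to 4, and at 4.40, 4.27, 3.78 and 4.51 in control replicates 1 to 4. The groups did not overlap, and the control values lay below the background. The differences were -3.20 ± 0.47 for sponge plus Salmonella minus Salmonella and 5.37 ± 0.47 for Salmonella minus control. TCN2 (chromosome 14, 47496245 to 47515966) stood at 6.92, 5.74, 4.65 and 4.64 in sponge plus Salmonella replicates 1 to 4, at 8.47, 9.19, 8.54 and 9.69 in Salmonella replicates 1 to 4, and at 5.43, 4.79, 5.34 and 5.58 in control replicates 1 to 4. Here sponge plus Salmonella and control overlapped, with replicates 1 and 2 above every control value and replicates 3 and 4 below every one. The differences were -3.48 ± 0.44 for sponge plus Salmonella minus Salmonella and 3.69 ± 0.44 for Salmonella minus control.

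The same ordering held for nearly every gene of the set. All 4 Salmonella values lay above all 4 control values in 7 of 7 genes, and this held for 15.7% of all genes. All 4 sponge plus Salmonella values lay below all 4 Salmonella values in 7 of 7, and this held for 13.2% of all genes. All 4 sponge plus Salmonella values lay above all 4 control values in 6 of 7, the exception being TCN2, and this held for 17.3% of all genes. For GBP6, sponge plus Salmonella replicates 3 and 4 and all control values lay below the background, so this separation is uncertain. For SLAMF8, replicates 3 and 4 (5.13 each) lay below 5.24, the 95th percentile of the genes taken as silent. The genes were chosen on these values, so the counts only describe the choice. In the Salmonella minus control difference, ANKRD22 stood first of 7480, P2RY14, VAMP5, SLAMF8, GBP6 and SLC6A12 held places 6 to 10, and TCN2 place 33. Among falls with the sponge, ANKRD22 stood first, GBP6 held place 4, P2RY14 place 7, TCN2 place 8, SLAMF8 place 11, SLC6A12 place 13 and VAMP5 place 15.

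**Figure D2:**
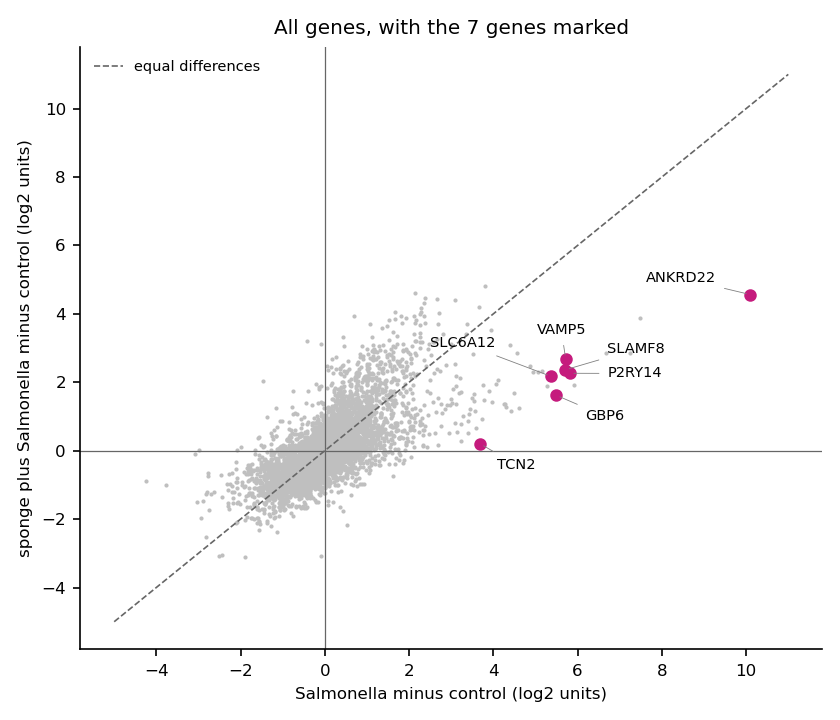
Each dot is a gene, with the Salmonella minus control difference on the horizontal axis and the sponge plus Salmonella minus control difference on the vertical axis, both in log2 units, and the 7 genes in colour. All 7 lie to the right and below the dashed line of equal differences, ANKRD22 far to the right at 10.10 and TCN2 near zero on the vertical axis at 0.20.

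The sponge plus Salmonella libraries kept part of the increase. Between the control mean (0%) and the Salmonella mean (100%) on the log2 scale, the sponge plus Salmonella mean stood at 46.8% for VAMP5, 45.2% for ANKRD22, 41.4% for SLAMF8, 40.4% for SLC6A12, 38.9% for P2RY14, 29.5% for GBP6 and 5.49% for TCN2. The first 5 lie within 8 points of each other, and leaving out 1 library moved VAMP5 alone between 38.7% and 54.7%, so their order is not set by these data. With values below the background raised to it, ANKRD22 stood at 35.9% and GBP6 at 20.5%, and the sponge plus Salmonella minus control difference of GBP6 was 0.98, against 1.62 as deposited. TCN2 stood at -7.50% without sponge plus Salmonella replicate 1, and its sponge plus Salmonella minus control difference was then -0.28, against 0.20 with all libraries. The 55 other genes called higher by at least 3 log2 units in Salmonella than in control libraries stood at a median of 44.8%, with a range of 8.69% to 142%. The 7 genes had a median of 40.4%, and no difference between them and these other steep risers was tested.

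Within the sponge plus Salmonella group the 7 genes varied more than most genes. Their standard deviations ran from 1.09 (TCN2) to 2.88 (ANKRD22) log2 units, against a median over all genes of 0.24 in the same libraries. The 55 other steep risers also varied more than most genes, with a median of 0.79, beside 1.33 for the 7 genes. ANKRD22 had the largest standard deviation of all 7480 genes in this group, and TCN2, the lowest of the 7 genes, held place 35. The spread lay between libraries: replicates 1 and 2 were both above replicates 3 and 4 in 7 of 7 genes, in 18.1% of the other 7473 genes and in 42 of the 55 other steep risers (76.4%). By library the median of the 7 genes stood at 68.5%, 59.0%, 17.8% and 18.6% of the Salmonella increase in replicates 1 to 4, and that of the 55 other steep risers at 60.2%, 60.5%, 31.3% and 25.4%. The monocyte marker mean was 9.72, 9.59, 9.28 and 9.17 in the same libraries and the T cell marker mean 8.58, 8.47, 8.99 and 9.07. The part of these markers in the spread was not tested.

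**Figure D3:**
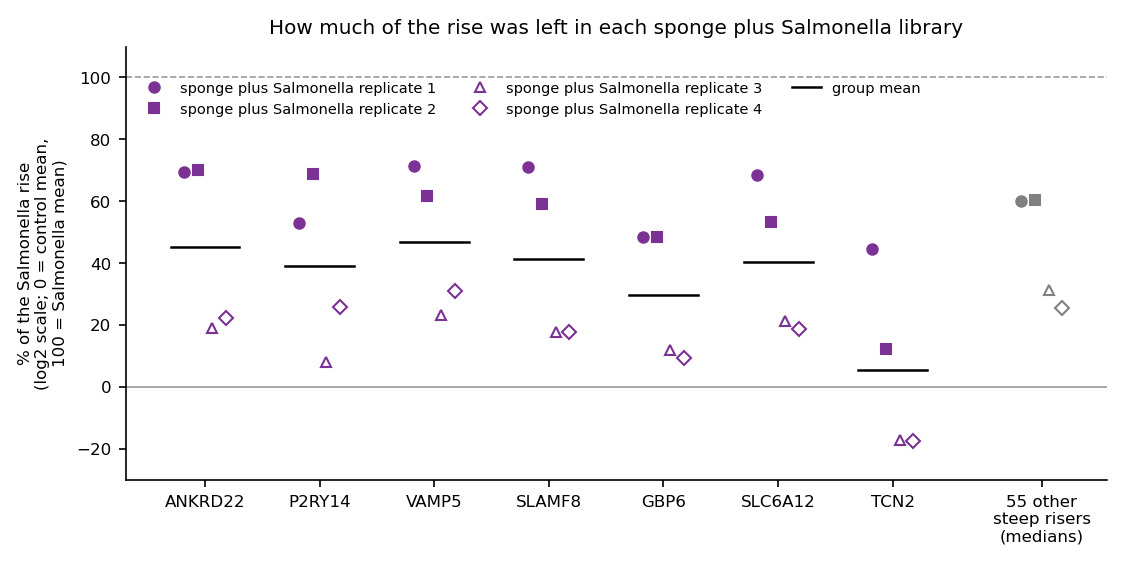
Level of each gene in each sponge plus Salmonella library (vertical axis, percent of the Salmonella increase on the log2 scale, 0 for the control mean and 100 for the Salmonella mean), with a bar for the group mean and, in grey, the medians of the 55 other steep risers. Replicates 1 and 2 lie above replicates 3 and 4 in all 7 genes, and TCN2 goes below 0 in replicates 3 and 4, where its values lie close to the background.

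Among the Salmonella libraries, replicate 1 was the lowest in 7 of 7 genes. The same library was the lowest in 36.7% of the other genes and in 34 of the 55 other steep risers (61.8%). Without any 1 library the Salmonella minus control difference of ANKRD22 ran from 9.87 to 10.48 and that of TCN2 from 3.45 to 3.85. In the control libraries the standard deviations ran from 0.18 (GBP6) to 0.50 (VAMP5), against a median over all genes of 0.19. For the 55 other steep risers the median was 0.40.

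For each of the 7 genes, the 2 genes with the most similar values were looked up. Likeness was the root mean square difference over the 12 libraries after each gene's control mean was subtracted. A small number means a near copy in both the size and the shape of the rise. The 7 genes were picked on these same values, so closeness among them only describes the choice. SLAMF8 and SLC6A12 differed by 0.30, SLAMF8 and VAMP5 by 0.36, and SLC6A12 and the guanylate-binding gene GBP4 by 0.31. BATF2 was closest to GBP6 (0.37) and to P2RY14 (0.43). For TCN2 the closest were CMPK2, a nucleotide kinase of mitochondria (0.47), and MT2A, a metal-binding protein (0.49). For ANKRD22 the 2 closest, the antiviral gene IFIT3 and the chemokine gene CXCL10, differed from it by 1.78 and 2.12. ANKRD22 had the largest Salmonella minus control difference of the table, 10.10, against 7.47 for IFIT3 and 7.24 for CXCL10. The size of a rise enters this measure, and the parts of size and pattern in these larger numbers were not tested. BATF2 stood at 6.75, 6.51, 4.54 and 4.64 in sponge plus Salmonella replicates 1 to 4, at 8.80, 9.82, 9.72 and 10.13 in Salmonella replicates 1 to 4, and at 3.97, 3.58, 3.47 and 3.78 in control replicates 1 to 4. Here too sponge plus Salmonella replicates 1 and 2 lay above replicates 3 and 4.

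For genes outside the set, differences were tested with limma and called where the Benjamini-Hochberg adjusted p, taken over the whole table, was below 0.05. The common spread of the groups applies here too. SE and p may be too small for sponge differences of genes such as GBP4 (SD 1.40 in sponge plus Salmonella, 0.37 in Salmonella libraries). Between Salmonella and control libraries 15.7% of all genes were called higher and 17.9% lower. Between sponge plus Salmonella and Salmonella libraries 11.9% were called higher and 13.2% lower, and between sponge plus Salmonella and control libraries 17.9% higher and 23% lower. After centring each library on its median, which moved the sponge plus Salmonella minus control differences by 0.12, the calls that were higher made up 35.2% in Salmonella against control, where the deposited values gave 46.8%. For sponge plus Salmonella against control they made up 29.2%, where the deposited values gave 43.7%.

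Below, "with Salmonella" stands for Salmonella against control libraries and "with the sponge" for sponge plus Salmonella against Salmonella libraries. Of 13 measured genes of interferon gamma and JAK-STAT signalling (24 listed) 8 rose with Salmonella and 5 were not called, with a median difference of 1.18 against -0.02 over all genes. Without control replicate 3, sponge plus Salmonella replicate 1 or Salmonella replicate 2, 1 of the 13 fell. With the sponge 7 of the 13 fell and 1 rose, which became 2 without sponge plus Salmonella replicate 4 or Salmonella replicate 1, with a median of -0.81 against -0.04 over all genes. All 7 genes that fell with the sponge were among the 8 that rose with Salmonella. Both comparisons use the same Salmonella libraries with opposite sign, so such overlap arises more easily than between separate comparisons. The share of all genes with both calls is not given here. Over all genes 15.7% rose with Salmonella and 13.2% fell with the sponge. Of the 7 measured monocyte markers 5 rose with Salmonella and 5 fell with the sponge, and their part in the values of this list was not tested. SOCS1, a brake on JAK kinases, fell by 2.40 ± 0.42 with the sponge (limma adjusted p = 0.00127) and rose by 4.87 ± 0.42 with Salmonella (adjusted p = 1.82e-06), though its control mean of 4.30 lies below the background. IRF1, a transcription factor of the interferon response, had means of 12.15 ± 0.47 in sponge plus Salmonella, 13.68 ± 0.22 in Salmonella and 11.38 ± 0.23 in control libraries (SD, n = 4). It fell by 1.53 ± 0.21 with the sponge (limma adjusted p = 0.000318) and rose by 2.29 ± 0.21 with Salmonella (adjusted p = 2.82e-06). BATF2 fell by 4.01 ± 0.46 with the sponge (limma adjusted p = 0.000117). The size of this fall is uncertain, as sponge plus Salmonella replicates 3 and 4 (4.54 and 4.64) lay close to the background. Its control values lay below the background. Of 15 genes listed from human tuberculosis blood signatures only BATF2, GBP4 and TRAFD1 were measured, and 3 of 3 rose with Salmonella and 3 of 3 fell with the sponge. TRAFD1, a restraint on innate signalling, fell by 2.27 ± 0.28 with the sponge (limma adjusted p = 0.000171).

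Relatives of each gene did not all share its pattern. Of the guanylate-binding and related GTPases 3 of 10 were measured. GBP4 stood at 11.74, 10.41, 8.57 and 9.18 in sponge plus Salmonella replicates 1 to 4, at 12.57, 12.97, 12.42 and 13.22 in Salmonella replicates 1 to 4, and at 8.13, 7.61, 7.29 and 7.57 in control replicates 1 to 4. It fell by 2.82 ± 0.49 with the sponge (limma adjusted p = 0.00124) and rose by 5.15 ± 0.49 with Salmonella (adjusted p = 3.83e-06). GBP3 averaged 5.77 ± 0.92 in sponge plus Salmonella, 5.73 ± 1.24 in Salmonella and 3.83 ± 0.16 in control libraries (SD, n = 4). It rose with Salmonella by 1.90 ± 0.51 (limma adjusted p = 0.0101), and between sponge plus Salmonella and Salmonella its difference of 0.04 ± 0.51 was not called (adjusted p = 0.962). Salmonella replicate 1 stood apart at 7.52, with the other Salmonella libraries at 4.69 to 5.39, and without it that difference was 0.64 (adjusted p = 0.209). Its control mean lies below the background.

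Of 10 measured receptors and enzymes of nucleotides and adenosine (28 listed), 2 rose and 4 fell with Salmonella, beside 15.7% and 17.9% of all genes. P2RY13, an ADP receptor beside P2RY14, averaged 8.95 ± 0.25 in sponge plus Salmonella, 8.89 ± 0.51 in Salmonella and 5.55 ± 0.73 in control libraries (SD, n = 4), with control replicate 1 apart at 4.46. It rose by 3.34 ± 0.32 with Salmonella (limma adjusted p = 4.42e-06), while its difference of 0.07 ± 0.32 between sponge plus Salmonella and Salmonella was not called (adjusted p = 0.892). P2RY12, the ADP receptor of platelets, rose by 2.10 ± 0.37 with Salmonella (limma adjusted p = 0.000599) and fell by 1.69 ± 0.37 with the sponge (adjusted p = 0.00491). P2RY11, a receptor for ATP, fell by 1.89 ± 0.26 with Salmonella (limma adjusted p = 7.69e-05). The platelet marker mean was 8.41 to 8.80 in sponge plus Salmonella, 8.22 to 8.70 in Salmonella and 7.54 to 7.82 in control libraries (6 of 7 measured), and its part in the P2RY12 values was not tested.

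Of 24 measured SNARE proteins and partners (44 listed), 10 rose and 2 fell with Salmonella (4 fell without control replicate 3), and 9 fell and 3 rose with the sponge. The 9 falls became 5 without Salmonella replicate 3. The shares of all genes were 15.7% higher and 17.9% lower with Salmonella, and 13.2% lower and 11.9% higher with the sponge. STX11, a syntaxin needed for the release of cytotoxic granules, stood at 11.11, 10.66, 9.63 and 9.63 in sponge plus Salmonella replicates 1 to 4, at 11.76, 12.51, 12.38 and 12.60 in Salmonella replicates 1 to 4, and at 8.00, 8.20, 8.21 and 8.38 in control replicates 1 to 4. It rose by 4.11 ± 0.29 with Salmonella (limma adjusted p = 5.94e-07) and fell by 2.05 ± 0.29 with the sponge (adjusted p = 0.000406). VAMP3, a SNARE of recycling endosomes, rose by 1.79 ± 0.20 with Salmonella (limma adjusted p = 1.59e-05) and fell by 1.39 ± 0.20 with the sponge (adjusted p = 0.000413). STX7, a syntaxin of late endosomes, rose by 2.04 ± 0.31 with Salmonella (limma adjusted p = 0.000181), and its difference of 0.53 ± 0.31 with the sponge was not called (adjusted p = 0.210).

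Of 7 measured SLAM receptors and partners (12 listed), 5 fell and 1 rose with Salmonella, and with the sponge 5 rose and 2 were not called. For these and the marker counts below, 17.9% of all genes fell and 15.7% rose with Salmonella, and 11.9% rose with the sponge. The direction opposite to SLAMF8 in both comparisons was called for 4 of the 7. These comparisons share the Salmonella libraries, and the share of all genes with both such calls is not given here. LY9, a SLAM receptor of lymphocytes, averaged 7.94 ± 0.22 in sponge plus Salmonella, 6.86 ± 0.36 in Salmonella and 8.61 ± 0.19 in control libraries (SD, n = 4). It fell by 1.75 ± 0.20 with Salmonella (limma adjusted p = 1.78e-05) and rose by 1.07 ± 0.20 with the sponge (adjusted p = 0.00198). CD2, an adhesion receptor of T cells, fell by 1.63 ± 0.18 with Salmonella (limma adjusted p = 1.31e-05) and rose by 0.82 ± 0.18 with the sponge (adjusted p = 0.00502). CD244, a receptor of NK cells, fell by 2.04 ± 0.29 with Salmonella (limma adjusted p = 0.000117). CD2 is also a T cell marker here, and of the 7 measured T cell markers 6 fell with Salmonella and 7 rose with the sponge. All 4 measured B cell markers fell with Salmonella and rose with the sponge, and of 3 measured NK cell markers 2 fell with Salmonella and 1 rose with the sponge. The part of these cell types in the SLAM family values was not tested.

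Relatives of the carriers went both ways or were not called, with the shares of all genes given below. Of 15 measured SLC6 transporters and osmolyte genes (27 listed), 1 rose and 3 fell with Salmonella (1 fell without Salmonella replicate 1 or 3), and 11 were not called. The riser was SLC6A13, a GABA transporter, which rose by 1.29 ± 0.25 (limma adjusted p = 0.00142) and fell by 1.58 ± 0.25 with the sponge (adjusted p = 0.000800). AKR1B1, the enzyme that makes the osmolyte sorbitol, fell by 1.42 ± 0.16 with Salmonella (limma adjusted p = 1.23e-05). BHMT, an enzyme that uses betaine, differed by -0.39 ± 0.12 (limma adjusted p = 0.0238) near the background, and it was not called without Salmonella replicate 1 or 3 or control replicate 2 (adjusted p up to 0.0705). Of 13 measured genes of cobalamin uptake and use (21 listed), 3 rose and 3 fell with Salmonella and 7 were not called. Over all genes 15.7% rose and 17.9% fell. MMADHC, which directs cobalamin within the cell, rose by 1.22 ± 0.20 (limma adjusted p = 0.000389), and CUBN, the receptor of intrinsic factor, fell by 0.98 ± 0.18 (adjusted p = 0.00103) to a mean below the background. MMACHC, which trims cobalamin, differed by -0.92 ± 0.31 (limma adjusted p = 0.0350). That call ended without control replicate 1 or 2 or Salmonella replicate 1 or 2 (adjusted p up to 0.101), and the 3 falls became 1 without each of these. Of 16 measured ankyrin repeat domain (ANKRD) genes other than ANKRD22, 1 rose and 5 fell with Salmonella, and 2 rose without control replicate 3. ANKRD55, with Salmonella replicate 3 apart at 7.16, fell by 1.61 ± 0.31 (limma adjusted p = 0.00126), ANKRD35 fell by 1.57 ± 0.32 (adjusted p = 0.00155) and ANKRD54 fell by 1.44 ± 0.34 (adjusted p = 0.00465).

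**Figure D4:**
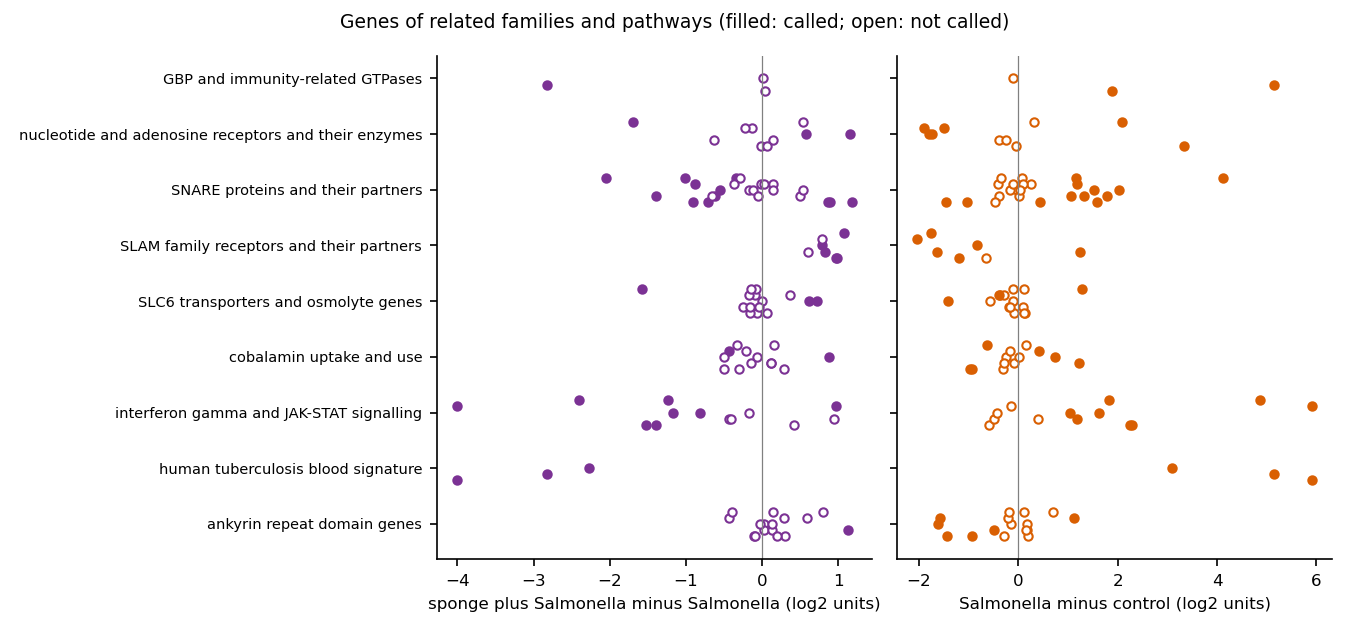
Log2 difference of each measured gene in 9 lists of related genes, the 7 genes left out, for sponge plus Salmonella minus Salmonella (left) and Salmonella minus control (right), with filled dots for called genes. Signalling genes lie mostly to the right of 0 in the right panel and to the left in the left panel, and SLAM family genes the other way round.

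On the chromosomes, 6 of the 7 genes could be placed. Of their 36 nearest measured neighbours, 3 on each side, 12 rose (33.3%) and 2 fell (5.56%) with Salmonella, beside 15.7% and 17.9% of all genes. With the sponge 11 fell (30.6%) and 2 rose (5.56%), beside 13.2% and 11.9% of all genes. With 1 neighbour on each side, 3 of 12 rose with Salmonella, namely ACTA2, P2RY13 and SLC6A13, and ACTA2 and SLC6A13 fell with the sponge. Behind ANKRD22, 95.7 kb away, ACTA2, which encodes smooth muscle actin, stood at 8.44, 8.23, 7.87 and 8.47 in sponge plus Salmonella replicates 1 to 4, at 10.24, 11.04, 10.84 and 10.92 in Salmonella replicates 1 to 4, and at 8.28, 8.59, 8.26 and 7.21 in control replicates 1 to 4. It rose by 2.67 ± 0.27 with Salmonella (limma adjusted p = 5.97e-06) and fell by 2.51 ± 0.27 with the sponge (adjusted p = 6.7e-05). Its sponge plus Salmonella values are close together, unlike those of ANKRD22. The interferon gene IFIT2 lies 421 kb from ANKRD22 and rose by 3.91 ± 0.35 with Salmonella (limma adjusted p = 2.33e-06). LIPM, a lipase gene on the other side of ANKRD22, overlaps it by 962 bases, and its difference of -0.53 ± 0.22 with Salmonella was not called (adjusted p = 0.0739), though it was without control replicate 3 (adjusted p = 0.0426) and after median centring (adjusted p = 0.0446).

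P2RY14 has 2 relatives close by, P2RY13 at 55.7 kb and P2RY12 at 69.0 kb. P2RY12 and P2RY14 were lower in sponge plus Salmonella than in Salmonella libraries, and for P2RY13 no such difference was called, as given above. Whether the 3 genes differ in this was not tested. SUCNR1, the succinate receptor, rose by 1.98 ± 0.25 at 663 kb (limma adjusted p = 3.75e-05). The gene MED12L spans P2RY14, reaches over the near ends of P2RY13 and P2RY12, and was not measured. SLC6A13 lies 291 bases from SLC6A12. It stood at 4.50, 5.28, 5.05 and 4.84 in sponge plus Salmonella replicates 1 to 4, at 6.73, 6.66, 6.52 and 6.09 in Salmonella replicates 1 to 4, and at 5.05, 5.04, 5.80 and 4.97 in control replicates 1 to 4. The sponge plus Salmonella and control values of SLC6A13 overlapped, while those of SLC6A12 did not. Whether reads were counted by strand is not given, so reads of such close or overlapping genes may not be told apart. PES1 lies 262 bases from TCN2 and was not called with Salmonella (-0.41 ± 0.25, limma adjusted p = 0.223). Of the 6 neighbours of SLAMF8, 1 was called with Salmonella, and this was FCER1A, the IgE receptor chain of basophils and dendritic cells, which fell by 3.02 ± 0.22 (limma adjusted p = 7.35e-07).

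**Figure D5:**
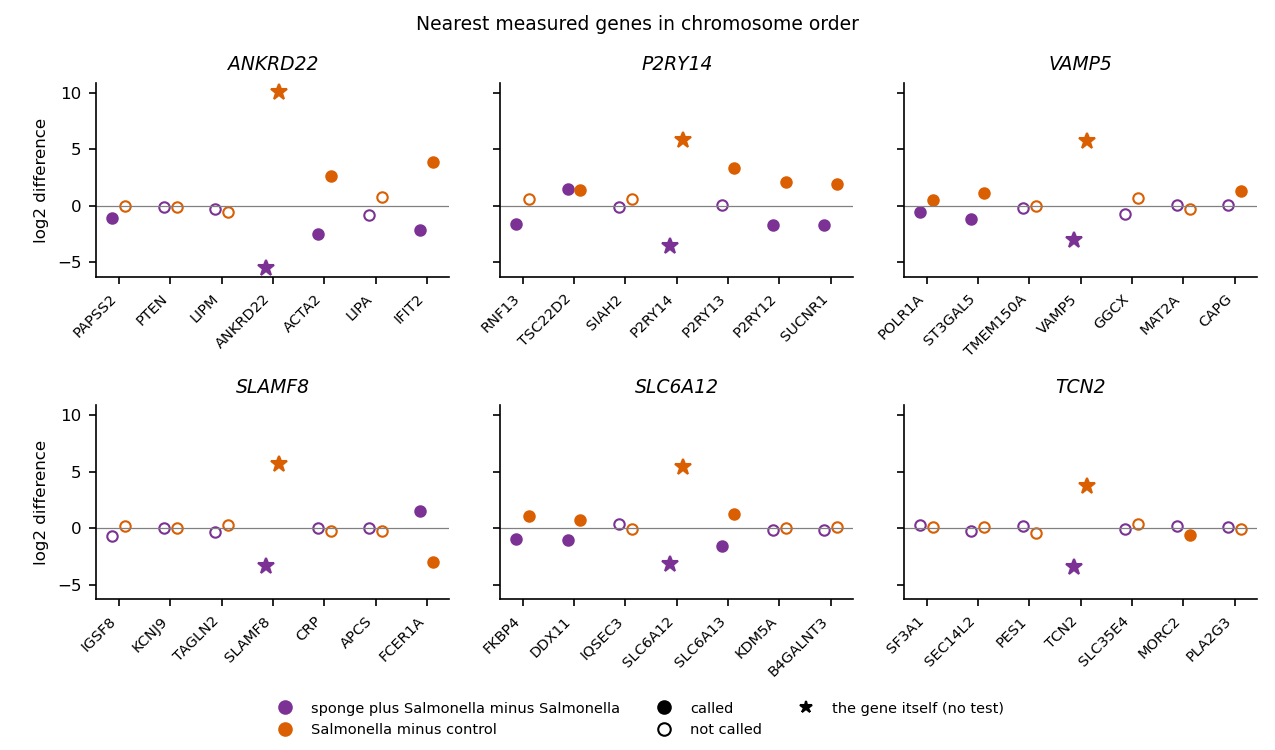
Log2 difference of the 3 nearest measured genes on each side of each gene, in chromosome order, for sponge plus Salmonella minus Salmonella (purple) and Salmonella minus control (orange), with filled dots for called genes and stars for the gene itself. The 12 filled orange dots above 0 lie around ANKRD22 (ACTA2, IFIT2), P2RY14 (TSC22D2, P2RY13, P2RY12, SUCNR1), VAMP5 (ST3GAL5, POLR1A, CAPG) and SLC6A12 (DDX11, FKBP4, SLC6A13).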

How the data were processed

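Per the labels' protocols, RNA (PAXgene kit, integrity number above 8) was made into TruSeq libraries, and 50 bases were read from 1 end per the series description. The genome build was Sscrofa11.1, with Bowtie and R 3.4.2 as tools, per the submitters' processing notes. The authors deposited log2 values, 1 for each symbol and library. How reads were counted, normalized and filtered, and the use of strand, is not given in the sources used here. Base 2 was assumed for the logarithm. Depth is unknown, so no counting error is given.

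A limma fit (version 3.58.1, R 4.3.3) covered 7480 genes and 12 libraries, with group means and trended variances, adjusted by Benjamini-Hochberg. It was tested on simulated data, with the same spread for a gene in every group and changes in the Salmonella group only. That test does not cover sponge differences of genes whose spread differs between groups. The 7 genes, the gene lists and the tests were chosen with earlier results of these data known. Named besides the 7 genes were the 2 most alike genes for each, the 3 called genes of each list with the largest Salmonella minus control difference, and the nearest measured neighbours. FCER1A, IFIT2 and SUCNR1 were named after their values were seen. Positions come from RefSeq for Sscrofa11.1.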

Additional observations from a re-analysis of the deposited data

Results flagged for a closer look

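Of 135 groups of 4 libraries examined, 5 held a library far from the other 3, and chance gives about 1 in 20. None of the 21 groups of the 7 genes was among them. TAGLN2 was low in sponge plus Salmonella replicate 1, at 10.23, with the other 3 libraries at 11.44 to 11.67. ANKRD55 was high in Salmonella replicate 3, at 7.16, with the others at 5.79 to 5.84. SIAH2 was low in Salmonella replicate 4, at 8.00, with the others at 8.71 to 8.82. P2RY13 was low in control replicate 1, at 4.46, with the others at 5.86 to 5.97. SLC6A13 was high in control replicate 3, at 5.80, with the others at 4.97 to 5.05.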

How the results depend on the processing

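Depth is unknown, levels below 4.62 are uncertain, and groups hold 4 libraries each. Alternatives were no variance trend, a mean of at least 5, median centring, quantile normalization, a replicate block, only the groups compared, group medians, values raised to the background, and leaving out each library. Of the differences of the 7 genes, 167 of 168 with 1 library left out and 100 of 105 others kept their direction and size within 1 SD. The replicate block cannot change these differences, as every group holds the same replicate numbers, and median centring moves all genes by the same amount. The limit of 1 SD is wide: the ANKRD22 sponge plus Salmonella minus Salmonella difference ran from -6.37 to -4.65 with 1 library left out and counts as kept. Values raised to the background gave Salmonella minus control differences of 8.63 for ANKRD22, 5.21 for SLAMF8, 4.79 for GBP6 and 4.996 for SLC6A12. The sponge plus Salmonella minus control difference of TCN2, 0.20, was -0.19 between medians and ran from -0.28 to 0.48 with 1 library left out, and its share of the increase left was -5.52% between medians and -7.50% to 13.2% with 1 library left out. With a mean of at least 5, which leaves fewer genes, 585 genes were higher in sponge plus Salmonella than in Salmonella (888 without the filter), 864 were higher in sponge plus Salmonella than in control (1336 without), and 52% of the neighbours left rose with Salmonella, beside 24.1% of the 4144 genes left. Neighbours that fell with Salmonella were 11.1% after median centring (23.8% of all genes), 8.33% after quantile normalization (20.4%), 2.78% with the replicate block (16.7%) and 2.78% to 8.33% with 1 library left out. With 1 neighbour on each side 0% fell with Salmonella, and with 5 8.33% did. With 1 neighbour on each side, 0% were higher and 16.7% lower in sponge plus Salmonella than in Salmonella, and 8.33% higher than in control. Neighbours higher in sponge plus Salmonella than in Salmonella ran from 2.78% to 11.1% with 1 library left out. Neighbours lower in sponge plus Salmonella than in control were 19.4% after median centring (34.3% of all genes) and 16.7% after quantile normalization (25.7%). The cause of these shifts was not tested.

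Replicates of the same number were treated as unpaired, since the animal behind each library is not given. Deviations of same-numbered libraries correlated between -0.36 and 0.38, and a library correlated best with its own number in 4 of 24 cases. Such correlations cannot show whether same-numbered libraries share an animal. With the replicate block 1121 genes were higher and 1250 lower in Salmonella than in control, against 1175 and 1338 without it. Of the calls of named genes, the block ended that of MMACHC in Salmonella against control (limma adjusted p = 0.0520) and added those of SLC35E4 in the same comparison (adjusted p = 0.0485) and of CD244 in sponge plus Salmonella against Salmonella (adjusted p = 0.0413). Motifs in promoters were not run, as no promoter table was used here, and the alternatives for counts, CPM and similar units did not apply.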
